A study of Mus musculus with 6 samples.

Results

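The genes described here encode the secreted Wnt ligands and the receptors that bind them, measured by RNA sequencing in C2C12, a mouse myoblast line. They were chosen by name as all Wnt ligand genes, the Frizzled genes Fzd1 to Fzd10, the co-receptor genes Lrp5 and Lrp6, and the receptor genes Ror1, Ror2 and Ryk. That gave 34 genes of the 24879 in the table, namely 19 ligands, 10 Frizzled receptors and 5 other receptors or co-receptors. Control C2C12 cells (n = 3) were compared with C2C12 cells made to overexpress Msx1 (n = 3). MSX1 is a homeodomain protein known for keeping mesenchymal and muscle precursors undifferentiated. The control columns are headed with the word vector. The sources used here give neither the vector nor its promoter, nor the time of harvest, nor whether each line was a clone or a pool. Nothing in the labels says that replicates were separate cultures, so the p-values measure the spread between these libraries, which may be technical.

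Wnt proteins are lipid-modified signals that act mostly on nearby cells. A Wnt that binds a Frizzled receptor together with LRP5 or LRP6 stabilises beta-catenin, which then enters the nucleus and activates genes with TCF and LEF factors. Frizzled receptors can also signal without beta-catenin, often with ROR or RYK receptors, to the cytoskeleton and to cell polarity. In muscle, Wnt signals from the neural tube and ectoderm help start myogenesis in the embryo, and WNT7A acting on FZD7 is known to expand satellite cells in the adult.

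Levels are FPKM, fragments scaled by transcript length and by the mapped fragments of the library, summed over the transcripts of a gene. Because FPKM is scaled by length, levels of different genes are set side by side. It is not scaled by GC content, so ranks and shares across genes are approximate. Changes are differences in log2(FPKM + 1), Msx1 minus control, with the standard error (SE) and an adjusted p from limma over all genes tested. A gene is called higher or lower at an adjusted p under 0.05. In bulk RNA, a change in the number of cells that express a gene and a change in the RNA per cell cannot be told apart.

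Msx1 itself read 7.99, 7.13 and 7.54 FPKM in the control libraries and 1004, 944 and 912 FPKM in the Msx1 libraries. All 6 myoblast markers examined (Myod1, Myf5, Pax7, Des, Cdh15 and Musk) averaged at least 1 FPKM, and summed to between 195 and 196 FPKM in control and between 160 and 168 FPKM in Msx1 libraries. Des made up most of that sum. Within the list Myf5 (9.01 ± 0.396 to 1.64 ± 0.0968 FPKM, adjusted p = 3.05e-07), Des and Musk fell, Pax7 rose (adjusted p = 0.0115), and Myod1 and Cdh15 were not called. For other cell types 4 markers each were summed, and 3 for leukocytes. The range was higher in Msx1 than in control libraries for endothelial (0.493 to 0.889 against 0.185 to 0.221 FPKM), epithelial (0.202 to 0.383 against 0.0608 to 0.125 FPKM), osteoblast (5.01 to 5.99 against 3.04 to 4.42 FPKM) and adipocyte markers (0.27 to 0.82 against 0 FPKM). These sums rested mostly on 1 gene each (Cdh5, Cdh1, Bglap and Adipoq), and Pecam1, Tie1 and Dmp1 had lower means with Msx1. The range was lower for leukocyte (0.931 to 1.16 against 2.59 to 3.29 FPKM) and neural markers (2.06 to 3.09 against 7.74 to 8.99 FPKM), through Cd68 and Tubb3. Ptprc and Cd3e of leukocytes, Epcam of epithelia, Sox10 of neural crest and glia, Ibsp of bone and Plin1, Cidec and Lep of adipocytes were listed at 0 in every library. The part of such cells in the results was not tested. The table holds FPKM only. Steps between low values gave rough depths of 18.9 to 24.3 M fragments per library. At that depth 1 fragment on Wnt4 is worth about 0.0098 to 0.013 FPKM. Of 12388 genes tested, 2714 (21.9%) were called higher and 4007 (32.3%) lower, 54.3% in either direction. The share of calls that were higher was 40.4%, and it moved to 51.3% when libraries were scaled by median-of-ratios, to 46% after quantile normalization and to 55.5% when all genes but Msx1 were given equal totals. The median change over all genes was -0.07 as deposited, and 0, -0.03 and 0.03 under these scalings.

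The stretches of DNA just before the start sites of 5 of the genes are shown because they hold the largest ligand increase (Wnt4), the largest receptor increase (Ror1), the largest decrease (Fzd4), and 2 of the 3 matches to the letters bound by TCF and LEF factors (Wnt11 and Fzd7). Each run is the 250 bases before an annotated start in the RefSeq annotation of GRCm38, 5′ to 3′ on the strand of the gene, at chr4:137277385-137277634 for Wnt4, chr4:100095541-100095790 for Ror1, chr7:89404116-89404365 for Fzd4, chr7:98834862-98835111 for Wnt11 and chr1:59481897-59482146 for Fzd7, all on the plus strand. The last 28 bases of the Wnt11 run lie within the gene's RefSeq span, and 0 bases of the other 4 runs do. Capitals mark a match to one of the words that TCF and LEF factors prefer, on either strand. Each word searched opened with CTTTG, and its last letters were AA, AT, TA or TT.
Wnt4: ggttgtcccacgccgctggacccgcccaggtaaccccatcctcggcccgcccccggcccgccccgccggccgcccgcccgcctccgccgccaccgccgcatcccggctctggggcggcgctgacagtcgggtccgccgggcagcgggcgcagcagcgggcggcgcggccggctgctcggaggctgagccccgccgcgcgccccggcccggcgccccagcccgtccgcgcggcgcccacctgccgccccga
Ror1: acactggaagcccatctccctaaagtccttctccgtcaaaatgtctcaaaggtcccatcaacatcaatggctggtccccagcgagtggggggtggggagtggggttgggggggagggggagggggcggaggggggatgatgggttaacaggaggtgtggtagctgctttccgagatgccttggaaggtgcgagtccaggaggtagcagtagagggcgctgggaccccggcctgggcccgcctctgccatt
Fzd4: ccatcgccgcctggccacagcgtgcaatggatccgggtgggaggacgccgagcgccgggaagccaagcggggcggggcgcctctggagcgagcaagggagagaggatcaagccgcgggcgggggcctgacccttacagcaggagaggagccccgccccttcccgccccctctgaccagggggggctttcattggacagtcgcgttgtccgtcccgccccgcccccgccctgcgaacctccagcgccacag
Wnt11: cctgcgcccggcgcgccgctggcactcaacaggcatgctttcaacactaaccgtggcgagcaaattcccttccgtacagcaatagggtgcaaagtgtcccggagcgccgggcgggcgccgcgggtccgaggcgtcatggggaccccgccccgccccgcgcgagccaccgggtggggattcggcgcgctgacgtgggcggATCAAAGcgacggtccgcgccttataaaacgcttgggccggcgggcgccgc
Fzd7: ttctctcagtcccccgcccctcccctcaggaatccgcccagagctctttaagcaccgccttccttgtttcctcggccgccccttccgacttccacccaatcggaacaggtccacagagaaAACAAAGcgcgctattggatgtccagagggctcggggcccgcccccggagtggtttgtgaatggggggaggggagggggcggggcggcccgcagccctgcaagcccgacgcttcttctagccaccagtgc

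In Wnt11 the match began 51 bases and in Fzd7 130 bases before the start. The bases just after the Fzd7 start were not found near the beginning of its transcripts in GENCODE, another annotation. The Fzd7 distance thus holds for the RefSeq start only. The GC content of the Wnt4 window is 85.2%, that of Fzd4 72.8%, that of Wnt11 70.8%, that of Fzd7 65.2% and that of Ror1 62.4%. RefSeq windows matched 24 of the 34 genes, with 27 starts, since Wnt5b had 3 and Wnt11 2. The TCF and LEF letters lay in 3 of these 27 windows (11.1%), the remaining one being the start of Wnt5b farthest downstream, and in 14.8% of 32851 windows of all genes. TAATTG, a core bound by homeodomain proteins including MSX1, lay in 0 of the 27 and in 7.17% of all windows. CAGCTG, an E-box of the kind bound by MyoD, lay in 2 of the 27 (Wnt9a and Fzd10) and in 13% of all. The Wnt9a match began 74 bases before the start, within the last 81 bases of its window, which lie inside the gene's RefSeq span. Both strands were searched, and none of these matches overlapped another. The windows of these genes had a median GC content of 71.6%, against 52.4% for all windows. Those of Wnt2, Wnt6, Wnt9b, all 3 Wnt5b starts and the downstream Wnt11 start lay wholly inside the RefSeq span of their gene. A missing match says only that these letters are not in these windows.

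Most of the ligand genes that the cells expressed were higher with Msx1, and the receptors moved in both directions. Of the 34 genes, 21 had a mean of at least 0.5 FPKM over the 6 libraries and were tested. Among these 21, 12 rose (57.1%, against 21.9% of all genes tested), 3 fell (14.3%, against 32.3%) and 6 were not called. The groups did not overlap with Msx1 higher for 13 of the 21 (61.9%, against 25.5% of all genes) and with Msx1 lower for 4 (19%, against 36.7%). Wnt7b and Wnt11 reached the minimum only through their Msx1 libraries, so they had to differ. Without them 10 of 19 rose (52.6%) and 3 fell (15.8%). Among these 19 the groups did not overlap with Msx1 higher for 11 (57.9%) and with Msx1 lower for 4 (21.1%). The median change was 0.46 for the 21 genes and 0.44 for the 19, beside -0.07 over all genes. By class, 7 of 8 tested ligands rose and 0 fell, with 1 not called, and without Wnt7b and Wnt11 5 of 6 rose. The 8 tested Frizzled genes split into 3 that rose, 3 that fell and 2 without a call. Of the 5 other receptors, 2 rose and 0 fell.

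**Figure D1:**
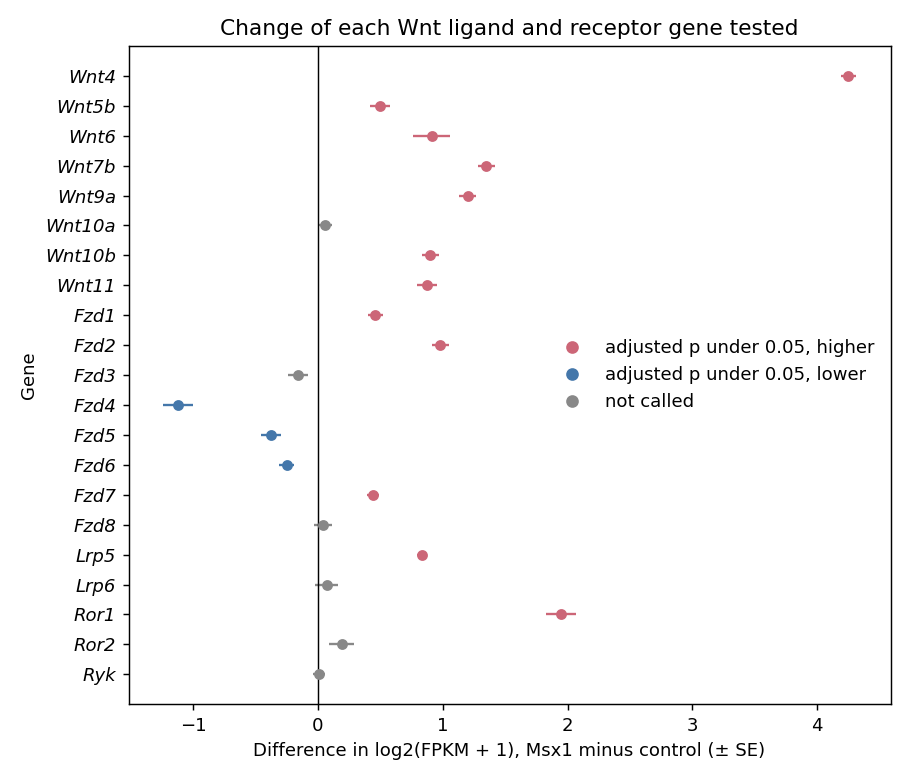
Difference in log2(FPKM + 1), Msx1 minus control, for the 21 genes tested, with the moderated SE as bars (3 libraries per group). Wnt4 (4.25) and Ror1 (1.95) lie farthest to the right and Fzd4 (-1.12) farthest to the left, while Ryk, Fzd8, Wnt10a and Lrp6 lie near 0.

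Wnt4, a ligand known from kidney tubule and female reproductive tract development, made the largest step of the 21 genes tested. It read 1.15, 1.05 and 1.22 FPKM in control and 39.4, 38.7 and 40.7 FPKM in Msx1 libraries. Its lowest Msx1 library was thus far above its highest control library, and the spread within either group was small beside the gap. The means were 1.14 ± 0.0833 and 39.6 ± 1.01 FPKM (SD, n = 3 each), 34.7-fold higher (log2 change 4.25, SE 0.06, adjusted p = 7.46e-09). Wnt4 ranked 6 among the 19 ligands in control and 1 in Msx1 cells. The gene lies on chromosome 4 from 137277635 to 137299501 (GRCm38, plus strand) and has 1 transcript in the table.

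Wnt9a and Wnt10b were among the main ligands of the control cells and rose further. Wnt9a, which takes part in joint formation, read 7, 5.86 and 6.45 FPKM in control and 16.3, 16.0 and 15.8 FPKM in Msx1 libraries, 2.49-fold higher (log2 change 1.20, SE 0.07, adjusted p = 4.22e-06). Wnt10b, known for holding back fat cell differentiation, read 9.37, 9.66 and 10.5 FPKM against 18.5, 20.6 and 18.8 FPKM, 1.96-fold higher (log2 change 0.90, SE 0.07, adjusted p = 1.65e-05). Neither gene had overlapping groups. Wnt10a, the relative of Wnt10b that is known for tooth and skin appendage development, was the most abundant ligand in control. It read 14.1, 13.9 and 13.9 FPKM in control and 14.1, 14.7 and 14.9 FPKM in Msx1 libraries, so that the groups nearly touch. This was not called (log2 change 0.06, SE 0.05, adjusted p = 0.37), although it was called higher when all genes but Msx1 were given equal totals (log2 change 0.16, adjusted p = 0.0411).

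Wnt5b and Wnt6 rose from lower levels. Wnt5b, which acts mainly without beta-catenin, read 2.30, 1.97 and 2.11 FPKM in control and 3.64, 3.10 and 3.56 FPKM in Msx1 libraries, 1.61-fold higher (log2 change 0.50, SE 0.08, adjusted p = 0.00109). With the most abundant transcript in place of the gene this change was 1.20. Wnt6, an ectodermal Wnt that acts on somites, read 2.03, 1.09 and 1.85 FPKM against 3.38, 4.02 and 4.49 FPKM, 2.39-fold higher (log2 change 0.91, SE 0.15, adjusted p = 0.00135). Its SE was the largest of the 8 tested ligands, with control replicate 2 well below replicates 1 and 3, but the groups did not overlap.

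Wnt7b and Wnt11 averaged under 0.5 FPKM in control and above 1 FPKM in Msx1 libraries. Wnt7b, a ligand of lung, kidney and bone development, read 0.0612, 0.0393 and 0 FPKM in control and 1.59, 1.70 and 1.64 FPKM in Msx1 libraries (log2 change 1.35, SE 0.07, adjusted p = 2.74e-06). With 1 fragment on Wnt7b worth about 0.013 to 0.017 FPKM, the control values rest on a handful of fragments at most, so no fold is given. With a pseudocount of 0.1 in place of 1 the log2 change was 3.73. Wnt11, which guides cell movements in the embryo, read 0.306, 0.222 and 0.23 FPKM against 1.44, 1.23 and 1.20 FPKM, 5.11-fold higher (log2 change 0.87, SE 0.08, adjusted p = 5.32e-05). Its log2 change was 1.98 with a pseudocount of 0.1 and 0.57 with the most abundant transcript. AU022754, annotated as antisense, overlaps exons of Wnt7b on the opposite strand by 324 bases and averaged 0.0104 FPKM in Msx1 libraries. Exons of Wnt5a, Wnt11, Fzd5 and Fzd6 also overlap an annotated gene on the opposite strand (Gm2670, Gm8398, Gm38058 and Gm26704). Without strand, reads from the shared bases cannot be told apart for any of these genes, Wnt7b included. The level of AU022754 depends on how such reads were assigned.

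**Figure D2:**
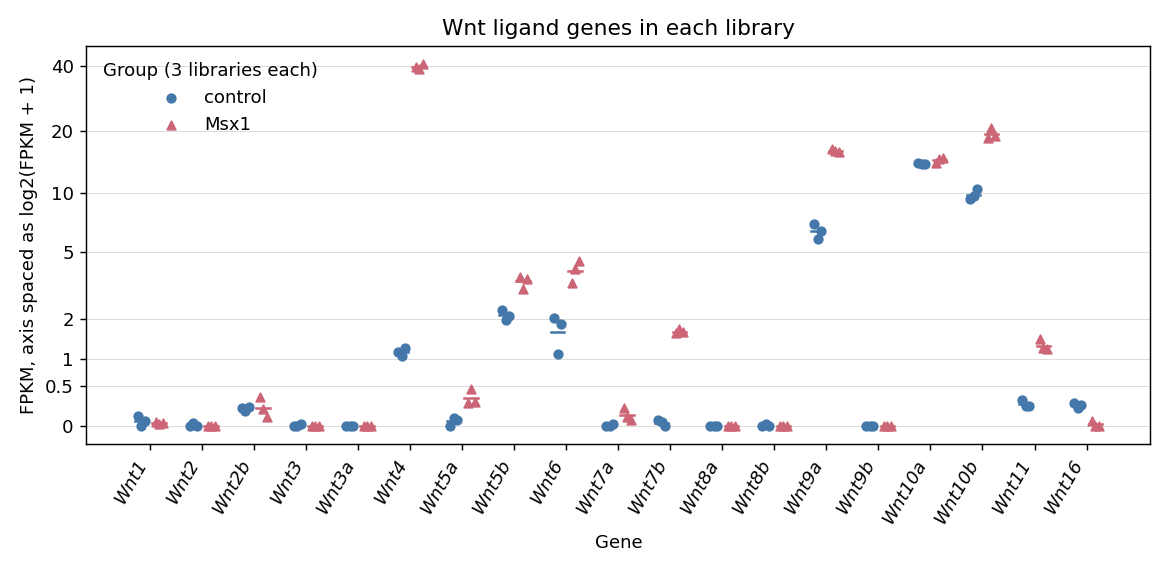
Level of each of the 19 Wnt ligand genes in every library (circles, control; triangles, Msx1; bars, mean on the plotted scale), in FPKM on an axis spaced as log2(FPKM + 1). Wnt4 climbs from about 1 to about 40 FPKM, Wnt10a stays near 14 FPKM, and 11 of the ligands stay under 0.5 FPKM in every library.

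The other 11 ligand genes averaged under 0.5 FPKM. Wnt3a, Wnt8a and Wnt9b were listed at 0 in every library, and Wnt2, Wnt3 and Wnt8b were above 0 in 1 control library each (0.0255, 0.0135 and 0.0159 FPKM), close to the worth of 1 fragment. Wnt1 reached 0.105 FPKM in control replicate 1 and lay between 0 and 0.0479 FPKM in the rest. Wnt2b lay between 0.0971 and 0.347 FPKM, with both extremes in Msx1 libraries. In the remaining ones the groups did not overlap. Wnt5a, the main ligand of ROR receptors, read 0, 0.0849 and 0.0646 FPKM in control and 0.269, 0.458 and 0.272 FPKM in Msx1 libraries. Wnt7a, the satellite cell ligand, read 0, 0 and 0.0132 FPKM against 0.20, 0.0904 and 0.0599 FPKM. Wnt16, known for its role in cortical bone, went the other way, from 0.262, 0.198 and 0.245 FPKM to 0.0544, 0 and 0 FPKM. When the minimum was dropped, Wnt5a (log2 change 0.34, adjusted p = 0.0071) and Wnt7a (0.15, adjusted p = 0.0451) were called higher and Wnt16 (-0.28, adjusted p = 9.84e-04) lower. Here 1 fragment is worth about 0.0059 to 0.0075 FPKM on Wnt5a, 0.013 to 0.017 FPKM on Wnt7a and 0.025 to 0.032 FPKM on Wnt16. The Wnt7a and Wnt16 values thus rest on few fragments.

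Summed over all ligands, FPKM were 36.9, 34.3 and 36.9 in control and 99.3, 101 and 102 in Msx1 libraries, 2.79-fold higher. Without Wnt4 the sums were 35.7, 33.3 and 35.7 against 59.9, 62.1 and 60.8 FPKM, 1.75-fold higher. The make-up of this pool was different in the 2 groups. Wnt10a held 38.8% ± 1.57 of it in control and 14.5% ± 0.219 in Msx1 libraries (SD, n = 3 each), while Wnt4 held 3.16% ± 0.127 and 39.4% ± 0.878. Wnt10b went from 27.4% ± 1.69 to 19.2% ± 1.06 and Wnt9a from 17.8% ± 1.03 to 15.9% ± 0.43, so both took a smaller share of the pool at a higher level. These sums describe RNA only and carry no test.

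**Figure D3:**
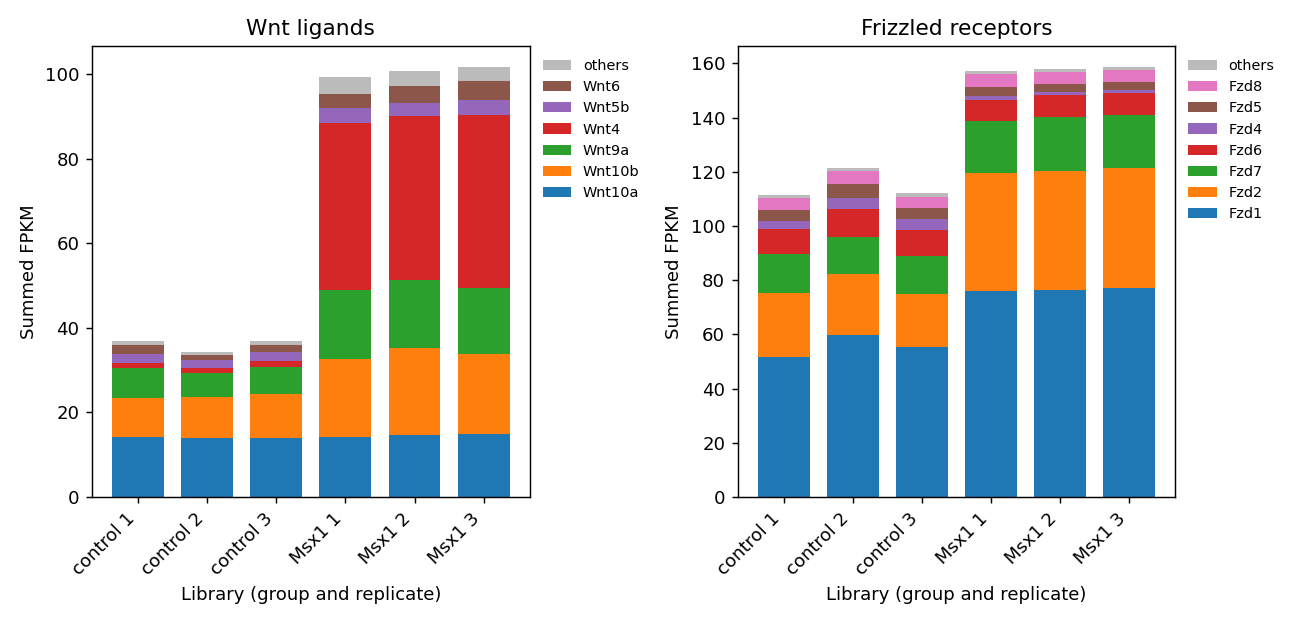
Summed FPKM of the Wnt ligand genes (left) and the Frizzled genes (right) in each library, stacked by gene. The ligand total is 34.3 to 36.9 FPKM in control and 99.3 to 102 FPKM in Msx1 libraries, with Wnt4 as the largest block in the latter, and the Frizzled total is 111 to 121 FPKM and 157 to 159 FPKM.

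Several of these ligands sit beside another Wnt gene, and in 3 of 4 such pairs 1 gene rose while the other was not called or was too low to test. The differences between neighbours were not tested. Wnt6 and Wnt10a lie on the same strand of chromosome 1, 6.7 kb apart with 0 annotated genes between them, and Wnt6 was 2.39-fold higher while Wnt10a was at 1.04 times its control level. Wnt10b and Wnt1 lie on opposite strands of chromosome 15, 11.7 kb apart, and Wnt10b rose while Wnt1 averaged 0.0509 FPKM in control and 0.0289 FPKM in Msx1 libraries. Wnt9a and Wnt3a lie on opposite strands of chromosome 11, 16.1 kb apart, and Wnt9a rose while Wnt3a was listed at 0 throughout. In the remaining pair, Wnt9b and Wnt3, which overlap on opposite strands of chromosome 11, both were at or next to 0 FPKM in every library.

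Among the Frizzled receptors, which bind Wnt through a cysteine-rich domain outside the cell, the most abundant ones rose and several less abundant ones fell. Fzd1, Fzd2 and Fzd7 form a sequence-related subfamily. Fzd1 read 51.7, 59.8 and 55.5 FPKM in control and 76.1, 76.5 and 77.1 FPKM in Msx1 libraries, 1.38-fold higher (log2 change 0.46, SE 0.06, adjusted p = 4.26e-04). By mean Fzd1 was the most abundant of all 15 receptor genes in Msx1 libraries. In control its mean was level with that of Ryk (55.7 ± 4.01 and 55.5 ± 0.361 FPKM, SD). Fzd2 read 23.5, 22.5 and 19.4 FPKM against 43.5, 43.9 and 44.4 FPKM, 2.02-fold higher (log2 change 0.98, SE 0.07, adjusted p = 1.58e-05). Fzd7, the satellite cell receptor of WNT7A, read 14.4, 13.5 and 14.1 FPKM against 19.1, 19.9 and 19.3 FPKM, 1.39-fold higher (log2 change 0.44, SE 0.05, adjusted p = 1.92e-04). In all 3 genes every Msx1 library lay above every control library. After the length and GC correction the log2 changes of Fzd1 and Fzd7 were both 0.29, and both stayed called.

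Fzd4, which also serves the non-Wnt ligand norrin in retinal vessels, fell the most of the 3 Frizzled genes called lower. It read 3.10, 4.39 and 4.03 FPKM in control and 1.46, 1.14 and 1.07 FPKM in Msx1 libraries, so that control was 3.13-fold higher (log2 change -1.12, SE 0.12, adjusted p = 1.32e-04). Its subfamily relatives Fzd9 and Fzd10 were low, with Fzd9 between 0.292 and 0.608 FPKM and overlapping groups, and Fzd10 listed at 0 throughout. Fzd5, a receptor of eye and gut development, read 3.82, 4.86 and 4.19 FPKM against 3.18, 2.96 and 3.00 FPKM (log2 change -0.38, SE 0.08, adjusted p = 0.00612). That call was lost when the most abundant transcript stood for the gene (log2 change -0.73, adjusted p = 0.266). Its relative Fzd8 was not called, with 4.68, 4.75 and 4.18 FPKM against 4.98, 4.44 and 4.65 FPKM (log2 change 0.04, SE 0.07, adjusted p = 0.676).

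Fzd6, which with Fzd3 orients hairs and guides axons, read 9.19, 10.3 and 9.43 FPKM in control and 7.78, 7.95 and 8.14 FPKM in Msx1 libraries (log2 change -0.25, SE 0.06, adjusted p = 0.0107). The groups were apart but close, and the call was lost when all genes but Msx1 were given equal totals (log2 change -0.15, adjusted p = 0.154). Fzd3 read 0.618, 0.814 and 0.761 FPKM against 0.564, 0.605 and 0.482 FPKM and was not called (log2 change -0.16, SE 0.08, adjusted p = 0.132), although it was with sample weights (adjusted p = 0.0205).

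Frizzled FPKM summed to 115 ± 5.57 in control and 158 ± 0.623 in Msx1 libraries (SD, n = 3 each), 1.37-fold higher. Fzd1 held nearly the same share of this sum in both groups, 48.4% ± 1.69 and 48.5% ± 0.149. Fzd2 went from 19.0% ± 1.93 to 27.8% ± 0.161, while Fzd4 went from 3.33% ± 0.474 to 0.777% ± 0.136 and Fzd6 from 8.40% ± 0.135 to 5.04% ± 0.0963.

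**Figure D4:**
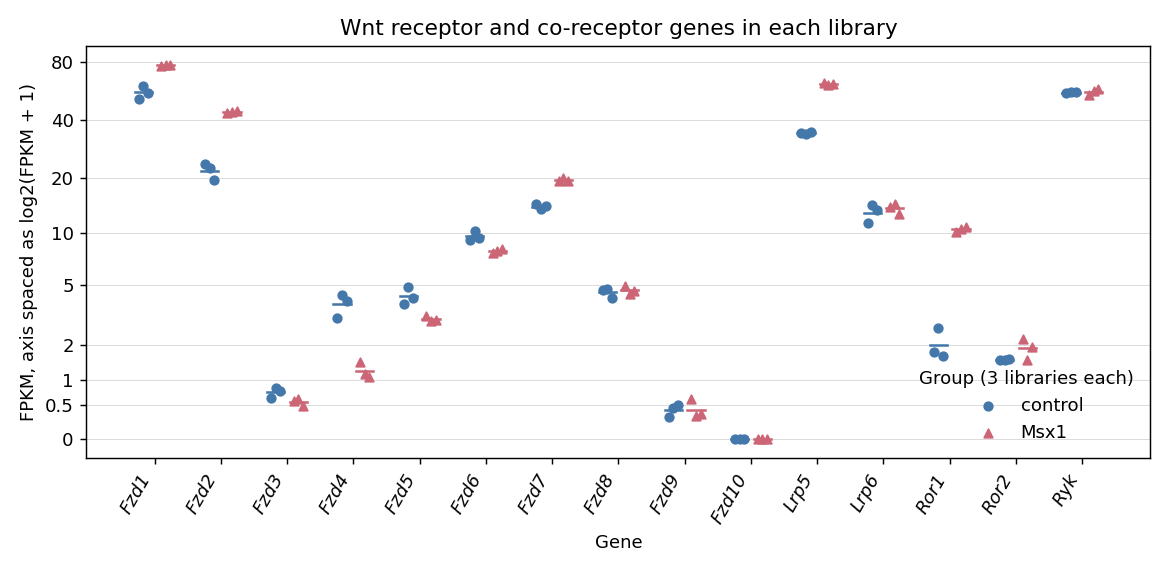
Level of each of the 15 receptor and co-receptor genes in every library (circles, control; triangles, Msx1; bars, mean on the plotted scale), in FPKM on an axis spaced as log2(FPKM + 1). Fzd1, Fzd2, Fzd7, Lrp5 and Ror1 sit higher in every Msx1 library, Fzd4 sits lower, and Ryk stays between 53.8 and 57.8 FPKM.

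The paired co-receptors LRP5 and LRP6, which are needed for beta-catenin signalling, did not give the same result. Lrp5, whose activity sets bone mass, read 34.1, 34.0 and 34.5 FPKM in control and 62.4, 60.5 and 61.4 FPKM in Msx1 libraries, 1.80-fold higher (log2 change 0.83, SE 0.04, adjusted p = 2.77e-06). Lrp6 read 11.4, 14.3 and 13.4 FPKM against 14.0, 14.4 and 12.8 FPKM, with overlapping groups (log2 change 0.07, SE 0.09, adjusted p = 0.546). The difference between these changes was not tested.

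Of the receptors that act mostly without beta-catenin, Ror1 stood out. Ror1, a kinase-like receptor of WNT5A, read 1.77, 2.64 and 1.64 FPKM in control and 10.2, 10.6 and 10.8 FPKM in Msx1 libraries, 5.21-fold higher (log2 change 1.95, SE 0.12, adjusted p = 5.85e-06). It moved from rank 11 to rank 7 among the 15 receptor genes. Ror2, its relative in limb and cartilage growth, read 1.52, 1.52 and 1.54 FPKM against 2.23, 1.52 and 1.94 FPKM and was not called (log2 change 0.19, SE 0.10, adjusted p = 0.134). Without Msx1 replicate 2, the lowest of its group, Ror2 was called higher (log2 change 0.29, adjusted p = 0.031). Ryk, a receptor with an inactive kinase domain, read 55.1, 55.7 and 55.6 FPKM against 53.8, 56.4 and 57.8 FPKM and was not called (log2 change 0.01, SE 0.05, adjusted p = 0.846). The 5 genes summed to 106 ± 2.20 FPKM in control and 143 ± 1.03 FPKM in Msx1 libraries (SD, n = 3 each), 1.35-fold higher, with Ryk going from 52.2% ± 0.756 to 39.0% ± 1.15 of the sum, Lrp5 from 32.2% ± 0.717 to 42.8% ± 0.829 and Ror1 from 1.89% ± 0.482 to 7.32% ± 0.147.

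Among the 34 genes, 8 had more than 1 transcript, whose FPKM rest on an estimated division of shared reads. For Ror1, transcript NM_013845 held 98.3%, 84.5% and 99.4% of the gene's FPKM in control and 98.8%, 99.4% and 99% in Msx1 libraries, so nearly all of the level in both groups lay in that transcript. For Wnt5b, transcript NM_001271758 held 42.8%, 0% and 43.2% of the FPKM in control and 72.3%, 72.8% and 80.3% in Msx1 libraries. The other main Wnt5b transcript, NM_009525, read 1.315, 1.973 and 1.2 FPKM in control and 1.008, 0.8412 and 0.6997 FPKM in Msx1 libraries. The groups did not overlap for either transcript, with opposite directions, and neither was tested. For Fzd5, NM_022721 held 69.8%, 78.1% and 0.266% in the Msx1 libraries, a wide spread within 1 group.

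The other genes of the pathway, 89 in 8 lists, were counted in the same fit. Of the 69 that were tested, 26 rose (37.7%, against 21.9% of all genes), 19 fell (27.5%, against 32.3%) and 24 were not called, with a median change of 0.04 beside -0.07. Notum, Lgr5 and Dkk1 stand in 2 lists and were counted once in these totals. Tle4, Nkd1, Lgr5 and Lgr6 reached the minimum only through the Msx1 libraries and Rspo2 only through the control libraries, so these had to differ. Without these 5 genes 22 of 64 rose (34.4%) and 18 fell (28.1%). Among genes for Wnt lipidation, transport and removal, 4 of 7 rose (57.1%) and 2 fell (28.6%). Porcn, which attaches the lipid to Wnt proteins, read 11.9, 12.4 and 11.5 FPKM in control and 39.6, 32.8 and 40.4 FPKM in Msx1 libraries (log2 change 1.57, adjusted p = 2.87e-06). The genes for enzymes that inactivate secreted Wnt rose too, with Trabd2b at 1.87 ± 0.0213 and 25.9 ± 0.352 FPKM (log2 change 3.22) and Notum at 3.09 ± 0.274 and 17.9 ± 0.763 FPKM (log2 change 2.21; SD, n = 3 each). Wls, which carries Wnt to the cell surface, fell from 173 ± 29.7 to 124 ± 8.78 FPKM (log2 change -0.47, adjusted p = 0.014), and Sulf1 was not called (log2 change 0.14, adjusted p = 0.345).

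Among other receptor partners, Musk included, 3 of 7 rose and 3 fell (42.9% each). Reck and Adgra2, which together make cells sensitive to WNT7A and WNT7B, rose by 0.60 and 0.86 on the log2 scale, Tspan12, the Fzd4 partner for norrin, by 0.42, and Ptk7 fell by 0.65. Mesd, a chaperone of LRP5 and LRP6, was not called (log2 change 0.05, adjusted p = 0.481). In the signal relay 5 of 17 rose and 5 fell (29.4% each), shares close to the 21.9% and 32.3% of all genes. There Ctnnb1, the gene of beta-catenin, read 244 ± 17.8 FPKM in control and 354 ± 17.3 FPKM in Msx1 libraries (SD, n = 3 each; a rise of 0.54 on the log2 scale, adjusted p = 4.52e-04), followed by the kinase gene Csnk1e with a rise of 0.53, while Apc2 fell by 0.48, and Apc (log2 change -0.02) and Btrc (-0.01) were not called.

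Of 14 nuclear partners of beta-catenin 3 rose and 3 fell (21.4% each, against 21.9% and 32.3% of all genes), and 8 were not called. Without Tle4 it was 2 of 13 that rose. Lef1 read 1.37 ± 0.211 FPKM in control and 5.99 ± 0.244 FPKM in Msx1 libraries (SD, n = 3 each), a rise of 1.57 on the log2 scale (adjusted p = 2.61e-06). Also rising were the co-repressor genes Tle3 and Tle4 by 0.52 and 0.66, while Pygo2 (log2 change 0.03) and Bcl9l (-0.01) were not called. Of 7 tested feedback targets of beta-catenin 6 rose (85.7%) and 0 fell, and without Nkd1 and Lgr5 4 of 5 rose (80%). Axin2 rose from 1.07 ± 0.106 to 24.6 ± 0.65 FPKM, Lgr5 from 0.173 ± 0.0739 to 5.10 ± 0.0736 FPKM and Apcdd1 from 3.65 ± 0.16 to 6.56 ± 0.339 FPKM (SD, n = 3 each), and Znrf3 was not called (log2 change -0.18, adjusted p = 0.0871). Of the R-spondin ligands and their receptors that were tested 3 of 4 rose (75%) and 1 fell (25%). Among these 4, Lgr4 alone reached the minimum in both groups. Lgr6 rose from 0.356 ± 0.124 to 6.18 ± 0.289 FPKM and Lgr4 from 5.86 ± 0.262 to 11.3 ± 0.213 FPKM, while the ligand gene Rspo2 fell from 2.40 ± 0.347 to 0.0572 ± 0.0176 FPKM.

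Of 5 tested secreted inhibitors 3 fell (60%, against 32.3% of all genes), 1 rose (20%, against 21.9%) and 1 was not called. Sfrp2, Dkk2 and Sfrp1 fell by 1.87, 1.5 and 0.84 on the log2 scale, Dkk3 rose by 0.24, and Sfrp4 was not called (log2 change -0.15, adjusted p = 0.138). Of 10 tested genes of planar cell polarity, the branch that aligns cells in a tissue, 3 rose (30%) and 2 fell (20%). Over all genes tested these shares were 21.9% and 32.3%. Prickle1 fell by 1.09, Daam2 rose by 0.72 and Scrib by 0.35, and Daam1 (log2 change -0.17) and Fuz (-0.09) were not called.

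**Figure D5:**
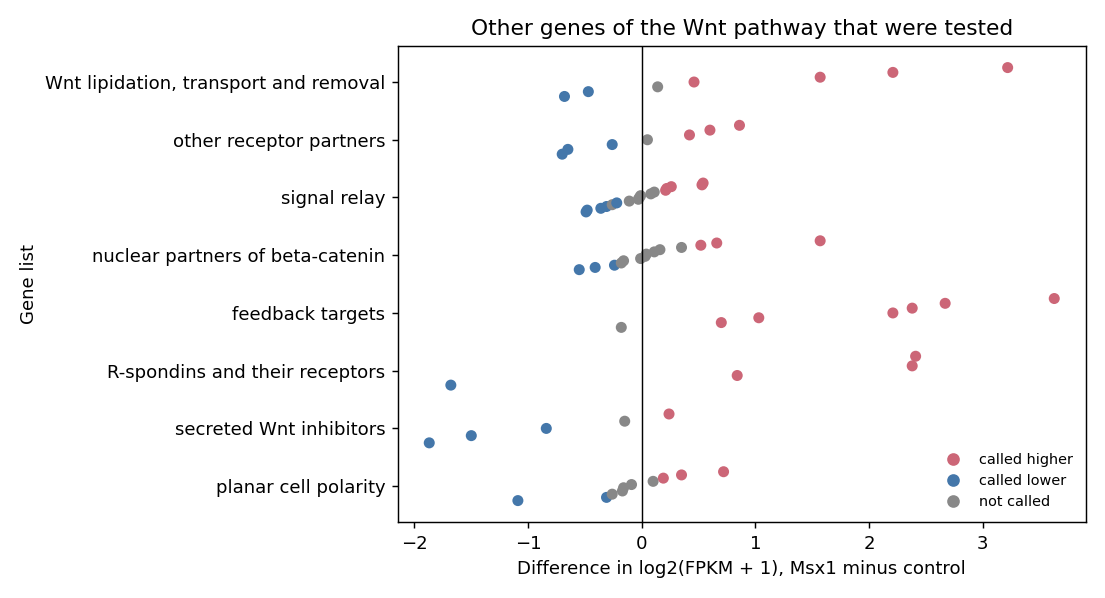
Difference in log2(FPKM + 1), Msx1 minus control, for the tested genes of the other Wnt pathway lists, 1 point per gene, coloured by call. The feedback targets reach 3.63 (Axin2), the secreted inhibitors go down to -1.87 (Sfrp2), and the signal relay genes stay between -0.5 and 0.6.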

How the data were processed

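RNA was sequenced from 3 control and 3 Msx1 libraries. The authors deposited FPKM, with 1 value per library for each RefSeq transcript. The tools named are Trimmomatic, HISAT2 and StringTie, on GRCm38 (mm10), per the submitters' processing notes. The sources used here give no tool versions, and do not say whether strand was used. Control columns were matched to control samples by number.

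Of 38468 transcripts, 38193 were named from RefSeq and 156 from GENCODE, and 119 kept their identifiers. FPKM were summed to 24879 genes. Values were taken as log2(FPKM + 1). Of the genes, 12388 that averaged 0.5 FPKM or more were fitted with limma 3.58.1 in R 4.3.3, with an intensity-dependent prior and p-values adjusted by Benjamini-Hochberg, and 12491 were not. The script was first tested on simulated data. Folds are ratios of mean FPKM. Depth was searched between 15 and 30 M fragments. At the best depth only 40.7% to 45.3% of low values were whole to within 0.1, so whole reads were not recovered.

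The 34 genes, the lists and the tests were chosen with earlier results of these data known. Every one of the 34 is accounted for. Of the leukocyte marker list, 1 gene is not reported here. From each other list the 3 smallest and 2 largest adjusted p among tested genes were named. The 18 alternatives cover scaling, pseudocount, minimum, model, transcript choice and left-out libraries. The length and GC correction was added after the data were seen.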

Additional observations from a re-analysis of the deposited data

How the results depend on the processing

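The count of the 34 genes called higher lay between 10 and 14 and the count called lower between 2 and 4 over 18 alternatives. The count higher was lowest with a minimum of 1 FPKM (10 of 18 tested) and highest without a minimum (14 of 30 tested). Leaving out 1 library at a time gave 12 or 13 higher and 3 lower. Of the 15 calls, 13 held under every alternative that tested the gene, and those of Fzd5 and Fzd6 were lost under 1 each, with the most abundant transcript and with equal totals without Msx1. No called gene changed sign. Correcting for length and GC, an alternative chosen after seeing the data, left these counts at 12 and 3.

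Whether the replicate numbers pair the libraries was not settled. Same-numbered libraries had correlations of deviations of 0.049, 0.222 and 0.036, and differently numbered ones lay between -0.201 and 0.135. Control replicate 1 and Msx1 replicate 3 correlated best with each other, and every other library with its own number. With the replicate block 12 of the genes were higher and 3 lower, and over all genes 2682 higher and 4035 lower.

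Summed FPKM moved by more than 1 SD under scaling: ligands in Msx1 libraries to 103 (median-of-ratios) and 105 (equal totals without Msx1), Frizzled genes in Msx1 libraries to 162 and 164, the other receptors in control to 103 and 102 and in Msx1 libraries to 147 and 149 FPKM. Depth limits the genes under 0.5 FPKM, where a few fragments set each value, and a gene listed at 0 may still be expressed below that level.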
